A study of Homo sapiens with 15 samples.

Results

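The comparison described here sets 3 RNA sequencing libraries of HEK293T cells labelled SNRPD2KO against 3 libraries of the same line labelled Ctrl, 6 of the 15 libraries of the study, chosen by their labels alone and described across all measured genes. HEK293T is an established human line from embryonic kidney that carries the SV40 large T antigen. KO stands for a CRISPR-Cas9 knockout and Ctrl for control, all libraries came from cells grown in DMEM with serum, and the labels name neither a guide, nor what the Ctrl cells received, nor whether a group is 1 clone or a pool. They also do not say whether replicates are separate cultures, so p values measure the spread between these libraries, which may be technical. The design text of the study starts from a possible link between SMD2, the product of SNRPD2, and RNA that carries pseudouridine. Another 3 HEK293T libraries labelled PUS7KO, in which the gene of a pseudouridine synthase was targeted, entered the fit and are set beside SNRPD2KO at the end.

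SNRPD2 RNA ran against the labels. Its level was 309, 286 and 246 CPM (counts scaled to a common library size) in the libraries labelled SNRPD2KO, against 196, 169 and 182 CPM in Ctrl, and every SNRPD2KO library lay above every Ctrl library. The log2 fold change, SNRPD2KO minus Ctrl, was 0.62 with a standard error of 0.10 (edgeR, adjusted p = 4.9e-05), for a gene at chr19:45687460-45692569 on build hg38. Columns of the count table were assigned to groups by the sample descriptions, so "higher" and "lower" below mean higher or lower in the libraries labelled SNRPD2KO and say nothing of the SMD2 protein. Counts per gene cannot reveal an edit of a few bases in an RNA that is still made. PUS7 stood at 31.1, 31.4 and 32.8 CPM in SNRPD2KO and 26.5, 26 and 27 CPM in Ctrl, with no overlap and a log2 fold change of 0.26 that missed the threshold (adjusted p = 0.053).

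As background, SMD2 is a subunit of the Sm ring, which the SMN complex loads onto the small nuclear RNAs of the spliceosome. Cells short of amino acids or with misfolded protein phosphorylate the initiation factor eIF2. That slows translation in general and favours the transcription factor ATF4, which drives genes of amino acid synthesis, amino acid import and tRNA charging. ERK signalling, in contrast, is read out by short-lived feedback genes such as the Sprouty proteins, the DUSP phosphatases and the ETS factors ETV1, ETV4 and ETV5.

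Total counts ran from 10080682 to 11270267 in SNRPD2KO and from 7944276 to 9202622 in Ctrl, and a count of 0 allows up to 0.266 to 0.378 CPM in a single library, for counting error only. Fewer genes had a count in SNRPD2KO (24947 to 26998) than in Ctrl (29551 to 30073). A single gene, RN7SL1, the signal recognition particle RNA, took 16.3% to 20.5% of counts in SNRPD2KO and 16.9% to 18.4% in Ctrl. Small noncoding RNAs together took 30.0% to 35.7% of counts in SNRPD2KO and 28.9% to 33.7% in Ctrl. The first principal component (60.8% of variance) set both knockout groups apart from Ctrl. On it SNRPD2KO lay at -39.0 to -30.1, PUS7KO at -29.9 to -23.4 and Ctrl at 57.4 to 69.0. SNRPD2KO replicate 3 stood apart from replicates 1 and 2 on the second component (10.1%), and it had the most genes with a count in its group. On log2 CPM it correlated at 0.9821 to 0.9839 with the PUS7KO libraries, and at 0.9816 and 0.9821 with replicates 1 and 2. It was thus as close to PUS7KO as to its own group. Without it 8503 of 16626 tested genes passed, against 8467 of 15882 with it. Of 15882 genes tested, 41 of at least 5 CPM varied more than 3-fold among the SNRPD2KO libraries and 49 among the Ctrl libraries. Also, 1613 tested genes lay for over 50% of their span under other genes on their strand, so that reads could be assigned either way. No HEK293T library had a count on a mitochondrially encoded gene. Markers of HEK293T summed over 10 genes to 755 to 922 CPM in SNRPD2KO and 980.3 to 1189 CPM in Ctrl. VIM and CDH2 were lower (log2 fold changes -0.44 and -0.38), NEFM (1.2), NEFL (0.76) and SOX2 (0.65) higher, PAX2 stayed below 0.9 CPM and LHX1 had no count in either group. The 8 epithelial markers summed to 10.2 to 13.1 CPM in SNRPD2KO and 12.3 to 13.1 CPM in Ctrl, mostly CDH1, which was higher (0.39), while KRT14 had no count. The 6 fibroblast markers summed to 8.63 to 13.8 CPM in SNRPD2KO and 6.95 to 7.69 CPM in Ctrl, with LUM higher (1.03).

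Rises and falls were near equal in number. At an adjusted p under 0.05, 8467 genes (53.3%) changed, 4276 higher (26.9%) and 4191 lower (26.4%) in SNRPD2KO, with a median log2 fold change over all tested genes of 0.02. Falls were the larger ones. Over 2-fold, 1194 genes (7.52%) were higher and 1591 (10.0%) lower, and over 8-fold 17 (0.107%) were higher and 164 (1.03%) lower. The 3 libraries of each group did not overlap for 59.5% of genes. Counts of gene lists below are to be read against these shares. A number in parentheses after a gene is its log2 fold change, and genes said to be higher or lower, or to have risen or fallen, passed this test. In bulk RNA, less RNA of a gene per cell and fewer cells that make it cannot be told apart.

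**Figure D1:**
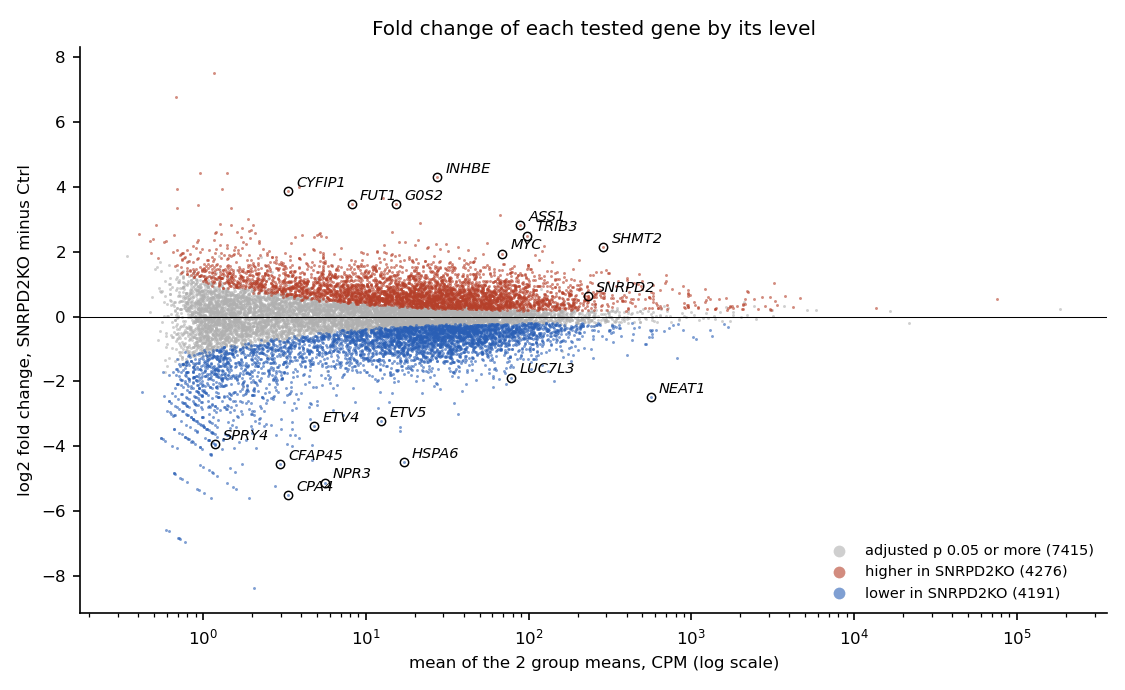
Log2 fold change of each of the 15882 tested genes (vertical axis, SNRPD2KO minus Ctrl) against the mean of its SNRPD2KO and Ctrl levels in CPM (horizontal axis, log scale), coloured by call at an adjusted p under 0.05, with 18 named genes circled. The 4276 higher and 4191 lower genes lie at all levels, and falls of more than 8-fold outnumber such rises, 164 to 17.

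Among protein-coding genes of at least 5 CPM in the higher group whose libraries did not overlap between groups, the largest rise was that of INHBE (chr12:57452323-57459280), which encodes the inhibin beta E subunit. INHBE stood at 59.1, 53.7 and 44.1 CPM in SNRPD2KO, against 2.89, 2.63 and 2.39 CPM in Ctrl, a log2 fold change of 4.3 (SE 0.15, edgeR adjusted p = 2.3e-11). FUT1, a fucosyltransferase, had 13.8, 15.4 and 15.9 CPM in SNRPD2KO and 1.82, 1.03 and 1.14 CPM in Ctrl (3.48). G0S2, which inhibits the lipase ATGL, had 23.8, 29.1 and 31.4 CPM in SNRPD2KO and 3.97, 2.74 and 0.796 CPM in Ctrl (3.47). In all 3 genes every SNRPD2KO library was several times above the highest Ctrl library. AKNA (2.89), a centrosome protein, ASS1 (2.82), SLC7A3 (2.61), STUM (2.53), TRIB3 (2.5), HBQ1 (2.48), a globin gene, SHC2 (2.45), an adaptor of receptor signalling, MFSD3 (2.36) and COMTD1 (2.29) followed. CYFIP1 (3.11, 12.1 and 3.50 CPM in SNRPD2KO), PCK2 (16.5, 4.62 and 5.89 CPM) and SMIM11 (20.1, 2.86 and 1.79 CPM) were also among the 15 largest such rises but rested on libraries that disagreed more than 3-fold. Without SNRPD2KO replicate 1, SMIM11 no longer passed (log2 fold change 0.67, adjusted p = 0.44), nor without Ctrl replicate 3 (2.28, adjusted p = 0.070).

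The falls reached further under the same conditions. CPA4, a carboxypeptidase, had 0, 0.11 and 0.256 CPM in SNRPD2KO, against 8.68, 8.45 and 2.5 CPM in Ctrl (-5.5). NPR3, the clearance receptor of natriuretic peptides, had 0.644, 0.22 and 0.0853 CPM in SNRPD2KO and 9.76, 11.5 and 11.4 CPM in Ctrl (-5.12). FAM20A, a pseudokinase of enamel formation, had 0.322, 0.66 and 0.256 CPM in SNRPD2KO and 9.97, 7.54 and 9.21 CPM in Ctrl (-4.43). The SNRPD2KO libraries were near the counting floor for these genes and all Ctrl libraries were above it. EMP1, an epithelial membrane protein, stood at 0.536, 0.55 and 0.512 CPM in SNRPD2KO and 8.9, 8.68 and 4.21 CPM in Ctrl (-3.74). AOC3 (-3.95), an amine oxidase, CD200R1 (-3.65), an inhibitory receptor, CMYA5 (-3.54), a muscle protein, ABCC2 (-3.24), an exporter of conjugates, TRIM72 (-5.22), of membrane repair, ADAMTSL4 (-4.0), of the extracellular matrix, and the ETS factors ETV1 and ETV4 fell likewise, with NDUFB9 (-3.48), CFAP45 (-4.56) and HSPA6 (-4.48). HSPA6 lies wholly under an unnamed noncoding gene on its strand. It had 1.39, 1.21 and 1.71 CPM in SNRPD2KO and 40.1, 46.1 and 11.8 CPM in Ctrl. The Ctrl libraries of HSPA6 and CPA4 disagreed more than 3-fold.

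Among noncoding RNAs, NEAT1 (chr11:65422774-65445540), the RNA on which paraspeckles form, was the most abundant to fall this far. It had 143, 153 and 213 CPM in SNRPD2KO and 1079, 1011 and 776 CPM in Ctrl (log2 fold change -2.49, SE 0.16, edgeR adjusted p = 5.8e-09). SNRPD2KO replicate 3 was the highest of its group and Ctrl replicate 3 the lowest of its own, and the groups stayed well apart. MALAT1, a speckle RNA, was lower too (2.58, 3.19 and 6.06 CPM in SNRPD2KO against 21.9, 20.9 and 18.5 CPM in Ctrl, -2.33). LINC01588 (-2.8) and HELLPAR (-2.62), which shares 70.9% of its span with another noncoding gene, also fell. LINC02985 rose, at 8.15, 6.71 and 7.17 CPM in SNRPD2KO and 0.536, 0.457 and 0.341 CPM in Ctrl (4.0), as did AKAP1-DT (2.5) and TWF2-DT (2.26), which start divergently from coding genes.

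**Figure D2:**
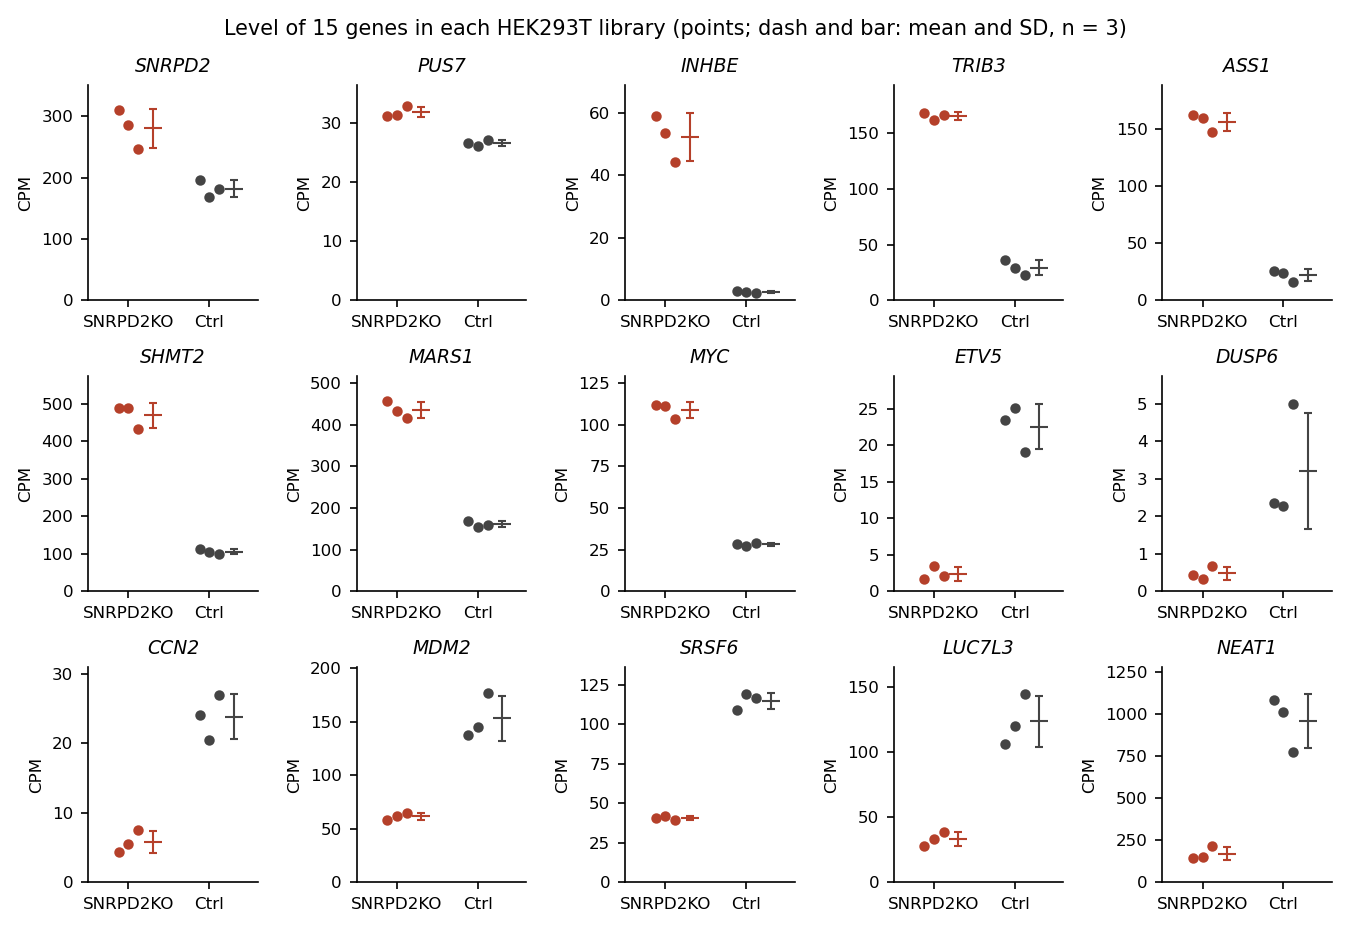
CPM of 15 genes in each library (points), with the mean and SD of each group (dash and bar, n = 3), SNRPD2KO left of Ctrl and the vertical axis starting at 0. SNRPD2 lies at 246 to 309 CPM in SNRPD2KO and 169 to 196 CPM in Ctrl. In none of the 15 genes do the groups overlap, which holds for 59.5% of all tested genes and was a condition for naming some of the 15.

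Genes of the eIF2 and ATF4 stress response and of amino acid supply were mostly higher in SNRPD2KO. Below, promoter sequences of 4 of them are shown first, because the element TGATGNAA, the core of the composite C/EBP and ATF site that ATF4 can bind, was searched for in these genes. Each is the stretch of 250 bases before a RefSeq transcript start (GRCh38.p14, 5′ to 3′ on the gene's strand), with the match to TGATGNAA or its reverse complement TTNCATCA in capitals. CHAC1 degrades glutathione, AARS1 charges the tRNA of alanine, SLC1A5 imports neutral amino acids, and SLC1A3 imports glutamate and is shown because it was lower.
CHAC1, chr15:40953221-40953470 on the plus strand: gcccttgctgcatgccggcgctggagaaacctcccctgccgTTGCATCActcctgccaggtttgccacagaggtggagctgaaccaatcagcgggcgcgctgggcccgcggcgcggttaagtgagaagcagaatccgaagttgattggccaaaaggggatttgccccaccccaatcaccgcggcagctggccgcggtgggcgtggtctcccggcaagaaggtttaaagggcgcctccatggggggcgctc
AARS1, chr16:70289507-70289756 on the minus strand: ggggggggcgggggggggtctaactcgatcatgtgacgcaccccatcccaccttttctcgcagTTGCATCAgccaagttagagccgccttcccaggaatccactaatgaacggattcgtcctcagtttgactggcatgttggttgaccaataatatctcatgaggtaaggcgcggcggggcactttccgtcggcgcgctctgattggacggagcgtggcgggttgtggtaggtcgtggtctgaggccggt
SLC1A5, chr19:46784815-46785064 on the minus strand: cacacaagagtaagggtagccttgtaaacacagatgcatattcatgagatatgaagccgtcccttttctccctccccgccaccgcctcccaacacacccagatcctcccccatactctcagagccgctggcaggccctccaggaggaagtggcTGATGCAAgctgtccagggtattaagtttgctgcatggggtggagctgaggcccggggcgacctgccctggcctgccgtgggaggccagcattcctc
SLC1A3, chr5:36596338-36596587 on the plus strand: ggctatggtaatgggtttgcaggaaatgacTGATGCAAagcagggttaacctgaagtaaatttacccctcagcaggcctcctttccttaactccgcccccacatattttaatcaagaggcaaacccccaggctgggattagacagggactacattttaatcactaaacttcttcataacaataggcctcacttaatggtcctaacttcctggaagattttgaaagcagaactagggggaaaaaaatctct

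CHAC1 carries the element as TTGCATCA beginning 209 bases before the start, AARS1 as TTGCATCA at 187 bases, SLC1A5 as TGATGCAA at 97 bases and SLC1A3 as TGATGCAA at 220 bases. Of 11078 tested genes with a window, 267 (2.41%) held a match in at least 1 window. Among 76 genes of the 5 lists on stress control, serine and folate, amino acid synthesis, cytosolic tRNA synthetases and amino acid transport, 13 (17.1%) did. The share was 10 of 53 (18.9%) for members higher in SNRPD2KO and 3 of 23 (13.0%) for the others, SLC1A3 and PPP1R15B among them. A match is a description of letters and not a bound site.

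Of 20 tested genes of stress response control, 12 were higher and 3 lower, against 26.9% and 26.4% of all genes, with a median log2 fold change of 0.53. TRIB3, a pseudokinase induced by ATF4 and CHOP, had 168, 161 and 166 CPM in SNRPD2KO and 36, 28.8 and 22.6 CPM in Ctrl (2.5, adjusted p = 9.3e-10). CHAC1 had 42, 39.6 and 33.8 CPM in SNRPD2KO and 8.25, 7.99 and 10.3 CPM in Ctrl (2.11). CEBPB, a partner of ATF4, had 52.4, 54.6 and 44.2 CPM in SNRPD2KO and 14.3, 15.2 and 18 CPM in Ctrl (1.67). DDIT4, an inhibitor of mTORC1 signalling, had 382, 388 and 356 CPM in SNRPD2KO and 176, 169 and 92.6 CPM in Ctrl (1.36), where Ctrl replicate 3 was the lowest. ATF4 itself stood at 737, 706 and 632 CPM in SNRPD2KO and 489.9, 490.1 and 433 CPM in Ctrl (0.55), a smaller difference than those of TRIB3, CHAC1 and CEBPB. The 3 that fell were GADD45A (-1.13), a growth arrest gene, PPP1R15B (-0.58), the constitutive eIF2 phosphatase subunit, and EIF2S1 (-0.32), the phosphorylated subunit of eIF2, whose sign turned to 0.02 with the GC trend removed, that is, with the smooth dependence of fold change on transcript GC content taken out before testing.

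Serine and folate genes were higher in 12 of 16 and lower in 1 (median 0.90). SHMT2, which splits serine into glycine and a one-carbon unit in mitochondria, had 489, 489.6 and 432 CPM in SNRPD2KO and 113, 106 and 98.6 CPM in Ctrl (2.15, SE 0.09). ALDH1L2, a mitochondrial folate dehydrogenase, had 49.7, 51.7 and 52 CPM in SNRPD2KO and 9.0, 12 and 11.8 CPM in Ctrl (2.23). The 3 enzymes that make serine moved together, PHGDH at 1.38, PSAT1 at 1.61 and PSPH at 1.15, and so did MTHFD1L (1.06). MTHFD2L (-0.68), an isozyme of a folate step, was the single fall, and missed the threshold with the GC trend removed (-0.15, adjusted p = 0.58).

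Amino acid synthesis genes were higher in 16 of 21 and lower in 2 (median 1.0). ASS1, which joins citrulline and aspartate on the way to arginine, had 162, 159.5 and 147 CPM in SNRPD2KO and 25.6, 24.2 and 16.4 CPM in Ctrl (2.82, SE 0.13). CTH, the last step of cysteine synthesis, had 96.5, 92.1 and 88.1 CPM in SNRPD2KO and 19, 20.9 and 16.8 CPM in Ctrl (2.29). CBS, the step before it, had 30.6, 52.6 and 23.1 CPM in SNRPD2KO and 7.5, 12.4 and 12.3 CPM in Ctrl (1.72). PYCR1, which makes proline in mitochondria, had 210.3, 215 and 184 CPM in SNRPD2KO and 49.7, 40.2 and 45.3 CPM in Ctrl (2.17). For CTH, CBS and PYCR1 the groups did not overlap, as for 59.5% of all tested genes. ASS1 was among the largest rises named above, for which no overlap was a condition. OAT (-0.76), which breaks ornithine down, fell. The lowest log2 fold change of the list was -1.15, in a member not named here. Against a 1.5-fold limit, 11 of the 21 were higher and 2 lower. ASNS, the asparagine synthetase, passed at 1.05 but at no more than 3.08 CPM, in a gene that lies almost wholly under a noncoding gene on its strand.

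Cytosolic tRNA synthetases, which load amino acids on tRNAs, were higher in 16 of 19 with none lower (median 1.06), or 1 lower with RLE factors (another scaling of the libraries), limma voom or DESeq2. MARS1, for methionine, had 456, 434 and 417 CPM in SNRPD2KO and 170.0, 155 and 159 CPM in Ctrl (1.43). QARS1, for glutamine, had 319.5, 331 and 291 CPM in SNRPD2KO and 98.1, 85.1 and 99.4 CPM in Ctrl (1.74). AARS1, with its promoter above, had 492, 479 and 475 CPM in SNRPD2KO and 245, 219 and 211 CPM in Ctrl (1.1). All 3 enzymes were clear of overlap, as were 59.5% of all tested genes. YARS1, for tyrosine, rose by 1.28 and SARS1, for serine, by 1.22 on the log2 scale. IARS1, for isoleucine, gave 1.74, but its libraries spread widely (272, 80.6 and 187 CPM in SNRPD2KO against 76.2, 12.1 and 72.5 CPM in Ctrl), and those of CARS1, for cysteine, did as well (1.98). The mitochondrial enzymes, encoded by other genes, were higher in 8 of 15 and lower in 2 (median 0.28), or 8 and 4 with the GC trend removed, and 1 was lower without SNRPD2KO replicate 2 or Ctrl replicate 2. TARS2 (1.22) and CARS2 (1.15) led, and HARS2 (-0.46) fell.

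Amino acid transporters were higher in 11 of 23 and lower in 3 (median 0.29). SLC7A3, for cationic amino acids, had 25.2, 23.3 and 26.7 CPM in SNRPD2KO and 4.18, 4.45 and 3.64 CPM in Ctrl (2.61). SLC43A1, for branched and aromatic ones, had 32.8, 33.9 and 32.1 CPM in SNRPD2KO and 7.5, 5.71 and 7.96 CPM in Ctrl (2.22). SLC1A4 had 21.5, 22.3 and 22.1 CPM in SNRPD2KO and 6.65, 5.82 and 7.16 CPM in Ctrl (1.74). SLC6A9 (1.64), for glycine, the cystine exchanger SLC7A11 (1.17) and SLC1A5 (1.07) followed. SLC1A3 had 10.2, 13.5 and 10.3 CPM in SNRPD2KO and 23.4, 20.9 and 21.7 CPM in Ctrl (-0.96), and SLC36A4 (-0.76) and SLC3A2 (-0.35), the shared heavy chain of several exchangers, were lower as well. Without Ctrl replicate 3, SLC3A2 gave -0.22 (adjusted p = 0.074).

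**Figure D3:**
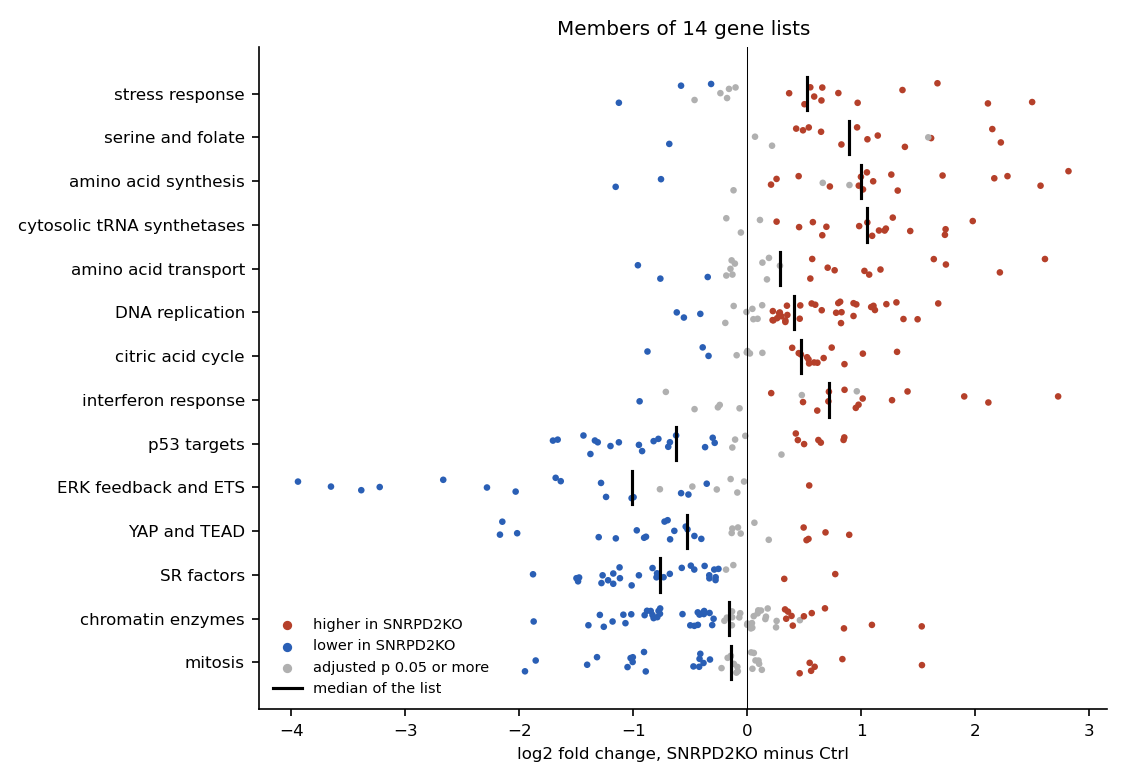
Log2 fold change (SNRPD2KO minus Ctrl) of every tested member of 14 gene lists, coloured by call at an adjusted p under 0.05, with a black bar at the median of the list. Medians run from 1.06 for cytosolic tRNA synthetases and 1.0 for amino acid synthesis to -0.76 for SR factors and -1.01 for ERK feedback and ETS genes.

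Other stress programmes differed less or in part in the opposite direction. Chaperones and quality control genes of the endoplasmic reticulum were higher in 13 of 25 and lower in 5 (median 0.34). XBP1, a transcription factor of that response, had 216, 218 and 217 CPM in SNRPD2KO and 84.9, 79.8 and 85.3 CPM in Ctrl (1.38), and MANF (0.92), a secreted reticulum protein, and HSPA5 (0.48), its main chaperone, were also higher. With the GC trend removed, 9 were higher and 2 lower, and 3 were lower without SNRPD2KO replicate 2 or 3 or Ctrl replicate 3. DERL2 (-0.48), DNAJC3 (-0.41) and DNAJB11 (-0.37) were lower with the trend kept. Heat shock chaperones were higher in 3 of 18 and lower in 7 (median -0.06). HSP90AA1, the inducible HSP90, had 752, 779 and 915 CPM in SNRPD2KO and 1275, 1434 and 1275 CPM in Ctrl (-0.7), and HSPH1 (-0.94), of the HSP110 class, and BAG3 (-0.59), a cochaperone, fell, while FKBP4 (0.72) and HSPA8 (0.29) rose. Of 21 NRF2 genes, which answer oxidants, 5 were higher and 9 lower (median -0.25). TALDO1 (1.06) and PGD (0.58), of the pentose phosphate pathway, rose, and HMOX1 (-0.65), heme oxygenase, GCLM (-0.67), of glutathione synthesis, and ME1 (-0.72), malic enzyme, fell.

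Lists of lipid enzymes and of the citric acid cycle and respiratory chain held more rises than falls. Cholesterol genes were higher in 11 of 25 and lower in 3 (median 0.31), or in 5 without Ctrl replicate 1 (median 0.21), with FDPS, which makes farnesyl pyrophosphate, at 92, 90.1 and 83.1 CPM in SNRPD2KO and 42.5, 39.5 and 46.1 CPM in Ctrl (1.05). TM7SF2 (1.25) and SCAP (0.95), the sterol sensor that escorts SREBP, rose. Fatty acid synthesis genes were higher in 8 of 18 and lower in 3 (median 0.34), with SREBF1 (18.8, 17.2 and 14.7 CPM in SNRPD2KO and 4.82, 6.28 and 6.25 CPM in Ctrl, 1.54), their transcription factor, and FASN (0.92) higher and GPAM (-1.13), which starts glycerolipids, and ACSL4 (-0.83) lower. Of 17 genes of lipolysis and fat oxidation, 7 were higher and 4 lower (median 0.22). The number lower was 2 by DESeq2 and without SNRPD2KO replicate 1 or 3 or Ctrl replicate 1 or 2, and with the GC trend removed 5 were higher and 4 lower (median 0.04). CPT2 (1.07) and ACADVL (0.77), of fatty acid oxidation, rose beside G0S2, and ABHD5 (-0.7), the activator of the lipase that G0S2 inhibits, fell.

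The citric acid cycle was higher in 13 of 21 genes and lower in 3 (median 0.47). IDH2 had 64.3, 70.2 and 68.2 CPM in SNRPD2KO and 34.8, 25.7 and 20.7 CPM in Ctrl (1.32). SUCLA2, of succinyl-CoA ligase, moved the other way (19.4, 15.6 and 22.8 CPM in SNRPD2KO and 34.3, 33.6 and 38.8 CPM in Ctrl, -0.87). Nuclear genes of the respiratory chain were higher in 18 of 35 and lower in 7 (median 0.26), with NDUFV1, of complex I, at 178, 184 and 157 CPM in SNRPD2KO and 51.8, 40.5 and 47.4 CPM in Ctrl (1.89) and UQCRC1, of complex III, at 1.34. COX7B (-0.6) and COX6C (-0.55), of complex IV, fell. They were not the largest falls, as the lowest log2 fold change of the list was -2.07, in a member not named here. NDUFB9, among the largest falls above, is not on this list. Glycolysis and hypoxia genes were higher in 5 of 25 and lower in 8 (median -0.23; 4 and 14 with the GC trend removed). PFKL, the liver phosphofructokinase, had 85.1, 86.1 and 77 CPM in SNRPD2KO and 33.1, 33.7 and 31.6 CPM in Ctrl (1.33), whereas the glucose transporter SLC2A3 had 50.6, 50.7 and 46 CPM in SNRPD2KO and 159, 138 and 65.6 CPM in Ctrl (-1.3). SLC2A1 (-0.91), ADM (-1.02), adrenomedullin, and HIF1A (-0.83), the hypoxia factor itself, were lower, with Ctrl replicate 3 below its fellows for both transporters.

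Genes of ribosome assembly were higher in 18 of 35 and lower in 5 (median 0.30), but with the GC trend removed in 11 and 7 (median 0.09). The number lower was 3 by DESeq2 and without SNRPD2KO replicate 1 or 2 or Ctrl replicate 3. BOP1 (1.65) and NOP56 (0.76) rose and NOP58 (-1.15), which pairs with NOP56 in box C/D particles, fell. NOP10 was called lower on the strength of Ctrl replicate 1 alone, at 82.3 CPM beside 3.08 and 3.41 CPM in the other Ctrl libraries, and gave -0.22 without it (adjusted p = 0.57). Cytosolic ribosomal protein genes were higher in 45 of 81 and lower in 7 (median 0.24), and mitochondrial ones in 40 of 75 and 8 (median 0.29). Translation factors were higher in 16 of 35 and lower in 8 (median 0.17), or 17 and 4 with the GC trend removed. EIF4EBP1, the repressor of cap binding that ATF4 also drives, had 151, 156 and 152 CPM in SNRPD2KO and 59.7, 59.8 and 55.2 CPM in Ctrl (1.39). EIF5, which acts in start codon choice, had 102, 97.1 and 105 CPM in SNRPD2KO and 239.7, 281 and 267 CPM in Ctrl (-1.38), and EIF5B (-0.97) was lower too.

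DNA replication genes were higher in 32 of 42 and lower in 3 (median 0.41), or in 1 with the GC trend removed. POLD2, a subunit of DNA polymerase delta, had 219.5, 224 and 192 CPM in SNRPD2KO and 74.2, 56.2 and 68.2 CPM in Ctrl (1.68). Its catalytic partner POLD1 had 122, 127 and 101 CPM in SNRPD2KO and 41.9, 37.9 and 43.9 CPM in Ctrl (1.5). CDC45 (1.37), MCM7 (1.31) and MCM3 (1.12), of the helicase, and E2F1 (1.22), which drives S phase genes, rose, with SNRPD2KO replicate 3 the lowest of its group for CDC45 and MCM7. ORC4 (-0.62), ORC6 (-0.56) and RFC1 (-0.41), of origin recognition and clamp loading, fell, but RFC1 missed the threshold without SNRPD2KO replicate 1 (-0.29, adjusted p = 0.080) and without Ctrl replicate 3 (-0.34, adjusted p = 0.055). Replication-dependent histone genes were higher in 47 of 56 and none was lower (median 0.77). Their copies are near-identical, so single histone genes are not named.

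G1 control genes were higher in 7 of 26 and lower in 6 (median -0.04), or 5 and 7 with the GC trend removed. CDK4, a cyclin D kinase, had 241, 256 and 198 CPM in SNRPD2KO and 111, 105 and 103 CPM in Ctrl (1.13). It was not the largest rise, as the highest log2 fold change of the list was 1.71, in a member not named here. The CDK inhibitors CDKN2B (-0.99), CDKN1A (-0.62) and CDKN1B (-0.63) were lower, as were CDK6 (-0.9) and RB1 (-0.68). DNA repair genes were higher in 13 of 34 and lower in 7 (median 0.09), with XRCC3 (1.2) up and BRCA2 (-0.99) and FANCM (-1.33) down. With the GC trend removed, 18 were higher and 3 lower. Mitotic genes were higher in 6 of 37 and lower in 16 (median -0.14). CENPE, a kinetochore motor, had 12.6, 13.8 and 20.9 CPM in SNRPD2KO and 54.5, 53.3 and 65 CPM in Ctrl (-1.86), and SGO2 (-1.95), a guard of centromere cohesion, SMC4 (-1.4), of condensin, and CENPF (-1.32) fell, while SPC24 (1.53) and ZWINT (0.84), of the outer kinetochore, rose.

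Genes of the p53 pathway were higher in 7 of 29 and lower in 18 (median -0.62). HEK293T cells carry the large T antigen, which binds p53. MDM2, the ligase that degrades p53, had 57.9, 61.8 and 65 CPM in SNRPD2KO and 137, 145 and 177 CPM in Ctrl (-1.31). ZMAT3, an RNA-binding target of p53, had 17.1, 14.1 and 17.4 CPM in SNRPD2KO and 44.8, 54 and 60.01 CPM in Ctrl (-1.7). GDF15, a secreted stress factor, had 14.4, 17.9 and 18.5 CPM in SNRPD2KO and 51.9, 49.7 and 59.9 CPM in Ctrl (-1.66). XPC (0.85) and DDB2 (0.65), which recognise DNA lesions, were higher. BCL2 family genes were higher in 3 of 17 and lower in 5 (median -0.12), or 2 and 6 with the GC trend removed. HRK, which promotes apoptosis, had 20.3, 18.3 and 17.2 CPM in SNRPD2KO and 7.93, 6.62 and 7.61 CPM in Ctrl (1.33), and BCL2L11 (-0.69), of the same class, fell.

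The list with the lowest median was that of ERK feedback and ETS genes, lower in 16 of 23 and higher in 1 (median -1.01). ETV5 (chr3:186046314-186110318) had 1.72, 3.52 and 2.05 CPM in SNRPD2KO and 23.5, 25.1 and 19.1 CPM in Ctrl (-3.23, SE 0.24, edgeR adjusted p = 2.4e-08). ETV4 had 0.751, 0.88 and 0.853 CPM in SNRPD2KO and 12.7, 8.79 and 4.89 CPM in Ctrl (-3.39). ETV1 had 0.536, 0.33 and 0.683 CPM in SNRPD2KO and 5.15, 7.54 and 7.73 CPM in Ctrl (-3.65). For ETV5 the groups did not overlap, as for 59.5% of all tested genes. ETV1 and ETV4 were among the largest falls named above, for which no overlap was a condition. DUSP6, the ERK phosphatase, stood at 0.429, 0.33 and 0.683 CPM in SNRPD2KO and 2.36, 2.28 and 5.0 CPM in Ctrl (-2.67). The inhibitors SPRY4 (-3.94) and SPRED3 (-2.28) fell at low levels, no library exceeding 5.34 CPM. EPHA4 (0.54), an ephrin receptor, was the one gene higher.

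Early response genes were higher in 6 of 25 and lower in 10 (median -0.32), or 5 and 15 with the GC trend removed. MYC stood at 112, 111 and 104 CPM in SNRPD2KO, against 28.5, 27.2 and 29.2 CPM in Ctrl (1.94), and JUND (1.14) and JUN (0.91) rose with it. The other AP-1 members FOSL1 (-2.03) and FOSL2 (-1.7) fell, and so did MAFF (-1.36), NR4A1 (-1.28) and NR4A2 (-1.27). YAP and TEAD genes of the Hippo pathway were higher in 5 of 27 and lower in 16 (median -0.52). CCN2 had 4.4, 5.5 and 7.51 CPM in SNRPD2KO and 24.1, 20.4 and 26.9 CPM in Ctrl (-2.02). ANKRD1 had 18.6, 19.9 and 27.6 CPM in SNRPD2KO and 81, 90.7 and 128 CPM in Ctrl (-2.17), and it and CCN2 are standard targets of YAP. NT5E (-2.15), LATS2 (-1.3), the kinase that restrains YAP, AMOTL2 (-1.15) and CRIM1 (-0.97) also fell, while AJUBA (0.9) and TEAD2 (0.69) rose.

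WNT genes were higher in 2 of 25 and lower in 11 (median -0.32), with 1 higher once the GC trend was removed. APC, of the complex that degrades beta-catenin, had 17.1, 19.2 and 26.1 CPM in SNRPD2KO and 51.7, 51.8 and 59.1 CPM in Ctrl (-1.37). LGR4, a receptor for R-spondins, had 14.6, 15 and 19.4 CPM in SNRPD2KO and 35.3, 39 and 57.4 CPM in Ctrl (-1.42). TCF7L2, a nuclear effector, had 4.08, 4.18 and 4.01 CPM in SNRPD2KO and 11.8, 10.2 and 13 CPM in Ctrl (-1.51). LRP5 (1.02), a WNT coreceptor, and FZD2 (0.57) rose. Genes of the TGF-beta family were higher in 5 of 32 and lower in 15 (median -0.27). Of the ligands, INHBE rose and INHBA (2.47, 2.42 and 3.41 CPM in SNRPD2KO against 10.7, 11.8 and 4.21 CPM in Ctrl, -1.67) and GDF15 fell. The signal carrier SMAD5 (-1.01) and the inhibitor SMAD7 (9.55, 8.36 and 10.1 CPM in SNRPD2KO against 25.2, 28 and 30.5 CPM in Ctrl, -1.57) fell, and the BMP antagonist NOG (1.68) and the ligand BMP7 (0.83) rose.

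Interferon response genes were higher in 14 of 22 and lower in 1 (median 0.72), mostly at low levels, and the number lower was 2 without SNRPD2KO replicate 3 or Ctrl replicate 3. IFI6 had 12.3, 12.8 and 9.47 CPM in SNRPD2KO and 3.32, 2.51 and 2.05 CPM in Ctrl (2.12). USP18, which curbs interferon signalling, had 17.5, 14.8 and 14 CPM in SNRPD2KO and 7.72, 8.22 and 6.93 CPM in Ctrl (1.01). IFI44L (2.73), BST2 (1.91) and ISG15 (1.41) rose below 5 CPM in every library, and ISG20 (-0.94), a nuclease, fell, though not without SNRPD2KO replicate 1 (-0.77, adjusted p = 0.053). MHC class I genes were higher in 5 of 10 and lower in 1 (median 0.37), against 2 and 0 with the GC trend removed, and none was lower without SNRPD2KO replicate 2 or 3 or Ctrl replicate 2. With the trend kept, PSME2 (0.61), an activator of the proteasome, and ERAP1 (0.57), which trims peptides, were higher. NF-kappaB genes were higher in 3 of 22 and lower in 7 (median -0.15), or 1 and 9 with the GC trend removed, and 1 was higher without Ctrl replicate 2. TNFAIP3 (4.4, 3.85 and 2.47 CPM in SNRPD2KO against 10.2, 11.9 and 8.98 CPM in Ctrl, -1.55), which ends the response, NFKBIZ (-1.24) and BIRC3 (-2.88) fell. CXCL8, IKBKG and NFKB2 rose. Without Ctrl replicate 2, CXCL8 (0.868, edgeR adjusted p = 0.090) and IKBKG (0.635, adjusted p = 0.068) missed the threshold. With the GC trend removed, NFKB2 gave -0.0359.

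Proteasome subunits were higher in 12 of 29 and lower in 11, with a median of -0.05 that was 0.12 with the GC trend removed, and 7 were lower without SNRPD2KO replicate 3. PSMD8 (0.8) and PSMD12 (-0.83), both of the regulatory lid, were the largest in each direction. Lysosome and autophagy genes were higher in 8 of 30 and lower in 10 (median -0.14). GLA, a galactosidase, had 239.7, 255 and 223 CPM in SNRPD2KO and 118, 109 and 135 CPM in Ctrl (0.98), and CTSZ (-1.16), a cathepsin, MCOLN1 (-1.03), a lysosomal channel, and ULK1 (-0.93), which starts autophagy, fell.

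Among genes of RNA processing the SR factors had the lowest median. SR proteins, related RS-domain factors and their kinases, which steer splice site choice, were lower in 28 of 32 and higher in 2 (median -0.76, and -0.51 with 22 lower with the GC trend removed), with 1 higher by RLE factors, DESeq2 and without SNRPD2KO replicate 2 or Ctrl replicate 1 or 2. LUC7L3 (chr17:50719565-50756219), a U1-associated factor, had 28, 33.7 and 38.7 CPM in SNRPD2KO and 106, 119.8 and 145 CPM in Ctrl (-1.88, SE 0.12, edgeR adjusted p = 7.9e-09). SRSF6 had 40.8, 41.9 and 39.3 CPM in SNRPD2KO and 109, 119 and 117 CPM in Ctrl (-1.5), though 98.0% of it lies under an unnamed coding gene on its strand. The kinase CLK4 (4.29, 4.62 and 8.28 CPM in SNRPD2KO against 15.3, 17.6 and 15.8 CPM in Ctrl, -1.48), RSRC2 (-1.48), LUC7L (-1.28) and PNISR (-1.27) followed. SRPK1, the kinase that sends SR proteins to the nucleus, ran the other way at 208, 192 and 206 CPM in SNRPD2KO and 117, 127 and 109.6 CPM in Ctrl (0.77).

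The Sm and LSm ring genes, SNRPD2 included, were higher in 4 of 16 and lower in 7, with a median of -0.19 that was 0.15 with the GC trend removed. LSM3 had 119, 122 and 105 CPM in SNRPD2KO and 260.4, 260.4 and 264 CPM in Ctrl (-1.18). SNRPB, a ring partner of SMD2, had 279, 263 and 245 CPM in SNRPD2KO and 395, 366 and 366 CPM in Ctrl (-0.52), and SNRPD3 (-0.55), the partner of SNRPB, was lower as well. LSM7 (0.68) and LSM4 (0.55) were higher. SMN complex and Sm methylation genes were higher in 6 of 16 and lower in 4 (median 0.15), with WDR77 (0.86), of the methylosome, up and PHAX (-0.85), which exports small nuclear RNAs, and COIL (-0.53), coilin of Cajal bodies, down. Other spliceosome proteins were higher in 9 of 47 and lower in 20 (median -0.17). DDX46, of the U2 particle, had 28.8, 31 and 38.3 CPM in SNRPD2KO and 97.6, 112 and 120.1 CPM in Ctrl (-1.74). SF3B1, which holds the branch point, had 244, 245 and 253 CPM in SNRPD2KO and 520.0, 569 and 594 CPM in Ctrl (-1.18). SNRPA, of U1, had 83.4, 74.6 and 69.8 CPM in SNRPD2KO and 34.9, 35.4 and 35.5 CPM in Ctrl (1.1) and so was higher.

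Among hnRNP and related RNA-binding genes 6 of 34 were higher and 14 lower (median -0.15), against 11 and 10 with the GC trend removed. PTBP2 had 27.8, 24.2 and 24.9 CPM in SNRPD2KO and 84.4, 94 and 108 CPM in Ctrl (-1.9). Its paralog PTBP1 had 264, 279 and 255 CPM in SNRPD2KO and 188, 175 and 192 CPM in Ctrl (0.53), so the paralogs differed in direction. RBM39 (-1.28) fell. Factors of nonsense-mediated decay and the exon junction were higher in 1 of 21 and lower in 10 (median -0.23), or 3 and 11 with the GC trend removed, with UPF3B (-1.2), SMG1 (-1.01) and UPF2 (-0.63) lower and NBAS (0.41) higher. Pseudouridine synthases and H/ACA genes were higher in 8 of 18 and lower in 6 (median 0.26). NOP10, called lower on Ctrl replicate 1 alone as described above, was among these 6. Without genes varying over 3-fold within a group, 8 of 17 were higher and 5 lower. The number lower was 3 without Ctrl replicate 3, and the median 0.07 with the GC trend removed, with 7 higher and 4 lower. RPUSD3, a mitochondrial member, had 113, 113 and 91 CPM in SNRPD2KO and 32.9, 34.5 and 34.4 CPM in Ctrl (1.63), and TRUB1 (-0.79) and PUS7L (-0.67) were lower. Of 12 paraspeckle genes 4 were higher and 7 lower (median -0.30), with NONO (0.58), a core protein, and CIRBP (0.96), a cold-induced protein, higher and NEAT1 and RBM14 (-0.72) lower. Host genes of small nucleolar RNAs were higher in 7 of 22 and lower in 7, with a median of 0.02 that was -0.01 with RLE factors and -0.12 with the GC trend removed. Without Ctrl replicate 2, 4 were higher. SNHG12 (16.3, 17.6 and 19 CPM in SNRPD2KO against 49, 51.8 and 61.1 CPM in Ctrl, -1.61) fell and SNHG30 (0.98) rose.

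Chromatin enzymes were higher in 11 of 62 and lower in 29 (median -0.16). SETD1B, a histone H3 lysine methyltransferase, had 8.91, 10.2 and 12.5 CPM in SNRPD2KO and 33.3, 33.2 and 50.1 CPM in Ctrl (-1.87), and KMT2B (-1.39) and SETD2 (-1.29), also methyltransferases, CHD1 (-1.26), a remodeller, and SUZ12 (-1.18), of the Polycomb complex, fell. HDAC6 (41.4, 44.9 and 41 CPM in SNRPD2KO against 14.8, 15.6 and 13.5 CPM in Ctrl, 1.53), which deacetylates tubulin, HDAC3 (1.1) and DNMT1 (0.68) rose. HOX genes, which set position along the body axis, were lower in 19 of 35 and higher in 2 (median -0.76). Zinc finger genes named ZNF were lower in 147 of 421 and higher in 65 (median -0.21).

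Adhesion and matrix genes were higher in 16 of 38 and lower in 3 (median 0.26), or in 5 without Ctrl replicate 3. COL6A2, a collagen chain, had 59.5, 65.3 and 69.5 CPM in SNRPD2KO and 28.9, 28.9 and 28.4 CPM in Ctrl (1.17), and COL4A6 (1.36), the laminin chain LAMB2 (1.52) and NCAM1 (1.26), a neural adhesion protein, rose. The integrin ITGAV went the other way, at 18.3, 16.2 and 23.5 CPM in SNRPD2KO and 80.9, 74.7 and 69.9 CPM in Ctrl (-1.95). Metalloproteases and their inhibitors were higher in 6 of 25 and lower in 8 (median 0.11), with ADAM15 (1.32) and TIMP3 (0.86) higher and ADAM12 (-1.32) and ADAMTSL4 lower. Cilium genes were higher in 16 of 42 and lower in 12 (median 0.05), against 17 and 6 with the GC trend removed. BBS2 (1.16) and IFT140 (1.01), of ciliary transport, rose, and CFAP45 (-4.56), inside axoneme doublets, and CEP290 (-1.06), of the transition zone, fell. Nuclear pore genes were higher in 14 of 30 and lower in 8 (median 0.09), with 9 higher by RLE factors or without SNRPD2KO replicate 1, and NUP210 (157, 159.5 and 178 CPM in SNRPD2KO against 63.8, 66.3 and 74.4 CPM in Ctrl, 1.27), a membrane ring protein, was up in the main test and NUP50 (-0.99) and TPR (-0.86), of the basket, were down. Actin genes were higher in 7 of 37 and lower in 8 (median -0.02), or 10 and 14 (median -0.19) with the GC trend removed, with TLN1 (0.9), talin, up and ABI1 (-0.93) and DSTN (-0.79), destrin, down.

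Direction varied with the base composition of transcripts and the length of genes. Across 15406 genes with a value, the log2 fold change and transcript GC content had a Spearman rho of 0.36, and across 12583 coding genes the fold change and gene length a rho of -0.21. These are correlations across genes of the same libraries and carry no p. With coding genes in 5 bins of equal size by GC content, in the lowest 8.51% were higher and 55.6% lower, and in the highest 45.8% were higher and 10.1% lower. Of coding genes of up to 5 kb, 42.7% were higher and 11.7% lower, and of those of 100 to 200 kb, 18.8% and 37.3%. The longest genes turned back from this course, with 19.9% higher and 30.5% lower among the 885 of the next length class, and 47 higher and 47 lower among the 204 longest. By chromosome, medians ran from 0.23 on chromosome 19, where 37.5% of 1028 genes were higher, to -0.18 on chromosome 13, where 39.0% of 287 were lower. By gene type, snRNA genes were lower in 20 of 38 and higher in 6 (median -0.70), though their many copies make single counts uncertain, and transcripts of the provisional class TEC were lower in 44 of 97 and higher in 8 (median -0.84). The part of the GC trend in any list was not tested beyond the values given with it removed. Where none is given above, the median of each of the 48 lists kept its sign without the trend. Families taken by symbol (histone, cytosolic and mitochondrial ribosomal protein, HOX and ZNF genes) were not run without it. Neither were the classes by chromosome and gene type.

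**Figure D4:**
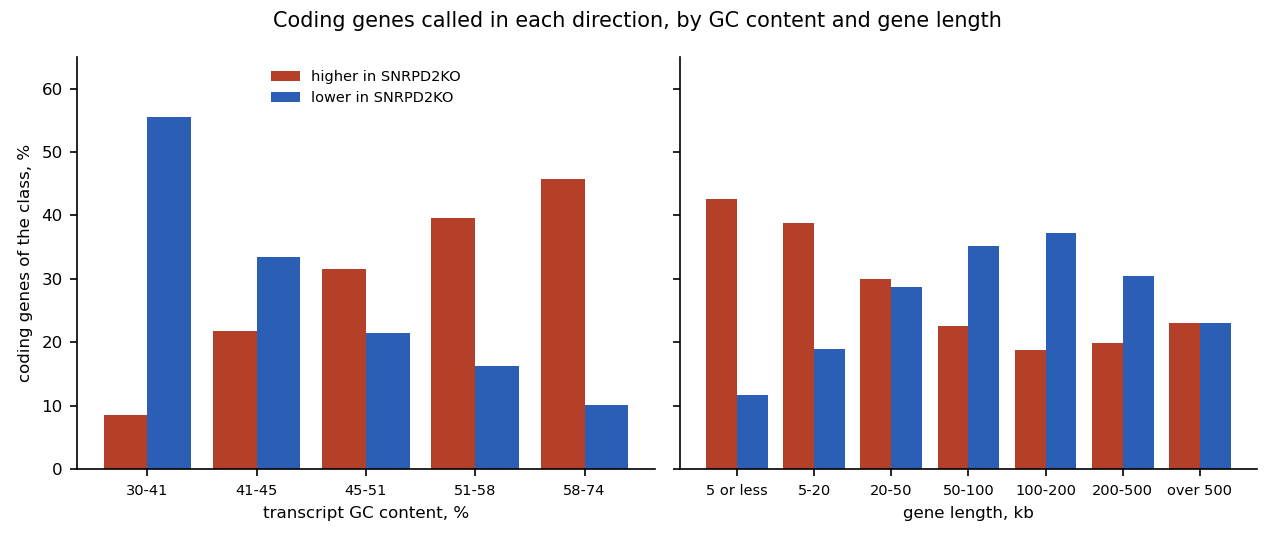
Share of tested coding genes, in percent, called higher (left bar of each pair) or lower (right bar) in SNRPD2KO, by transcript GC content in 5 equal bins (left panel) and by gene length in kb (right panel). The share called higher is 8.51% in the lowest GC bin and 45.8% in the highest, and the share called lower 55.6% and 10.1%.

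Some genes had counts in one group alone. Genes with a count in all 3 SNRPD2KO libraries and none in Ctrl numbered 95, and those with a count in all 3 Ctrl libraries and none in SNRPD2KO 997, of which 143 were protein-coding, 394 lncRNA and 240 processed pseudogenes. HBB, the adult beta globin, had 22, 25 and 22 counts in SNRPD2KO and was listed at 0 in each Ctrl library, and KLHDC7B had 15, 10 and 16 counts and was listed at 0 there too. In PUS7KO, HBB had 0, 0 and 1 counts and KLHDC7B 18, 11 and 18. TMEM215 (9, 22 and 24 counts in Ctrl), CLEC3B (14, 15 and 10) and CBLIF (12, 14 and 12) were listed at 0 in SNRPD2KO. LDHA, the lactate dehydrogenase subunit that dividing cells use, had 17, 3 and 2 counts in SNRPD2KO and was listed at 0 in Ctrl. In PUS7KO it had 2, 1 and 2 counts, and whether read assignment kept its counts low in all groups was not tested. No fold is given for any of these genes. PTPRC, CD3E, HBA1 and LYZ had no count in any SNRPD2KO library, and the summed level of the 7 blood markers was 4.44 to 5.67 CPM in SNRPD2KO and 1.85 to 4.03 CPM in Ctrl.

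Against the other knockout of the line, SNRPD2KO differed in far fewer genes. Set directly against PUS7KO, 758 genes (4.77%) changed, 249 higher (1.57%) and 509 lower (3.2%) in SNRPD2KO, and 54 (0.34%) changed by more than 2-fold. PUS7KO was not set against Ctrl here, since that comparison would share its Ctrl libraries with the one above. Interferon genes were among the rises. IFI6 had 12.3, 12.8 and 9.47 CPM in SNRPD2KO, 4.87, 3.51 and 4.27 CPM in PUS7KO and 3.32, 2.51 and 2.05 CPM in Ctrl (log2 fold change over PUS7KO 1.45, edgeR adjusted p = 0.0057). IFIT1 had 13.2, 12.3 and 17.1 CPM in SNRPD2KO, 7.83, 7.01 and 5.2 CPM in PUS7KO and 7.61, 7.31 and 6.82 CPM in Ctrl (1.09, adjusted p = 0.0083), with PUS7KO below all SNRPD2KO libraries and on both sides of Ctrl. PSME2 (1.07), OAS3 (1.04), COG5 (1.38), a Golgi tether, and SCRIB (1.12), a polarity protein, were also higher. WDR73 gave 4.3 on libraries that disagreed, at 38.3, 3.3 and 29.2 CPM in SNRPD2KO and 1.34, 0.835 and 1.46 CPM in PUS7KO.

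Among the falls, INHBA had 2.47, 2.42 and 3.41 CPM in SNRPD2KO, 7.16, 6.26 and 6.97 CPM in PUS7KO and 10.7, 11.8 and 4.21 CPM in Ctrl (-1.27 over PUS7KO, adjusted p = 0.031), and PUS7KO lay above SNRPD2KO and within the range of Ctrl. SNX10, a sorting nexin of endosomes, had 2.9, 2.86 and 4.1 CPM in SNRPD2KO and 6.3, 10.6 and 7.6 CPM in PUS7KO (-1.3), and RCC2 (-1.24) and ATP6V0D2 (-1.47), of the proton pump, were lower. RPS2 had 8.15, 6.49 and 9.56 CPM in SNRPD2KO, 119, 103 and 159.8 CPM in PUS7KO and 9.33, 98.5 and 88.1 CPM in Ctrl (-3.96 over PUS7KO), where Ctrl replicate 1 lay within the range of SNRPD2KO and the other Ctrl libraries lay far above it. RPS2 has near-identical processed copies, so its counts depend on how reads were shared out. SNRPD2 did not pass between these groups (0.11, adjusted p = 0.56), and PUS7 had 31.1, 31.4 and 32.8 CPM in SNRPD2KO and 13.7, 18.1 and 16.3 CPM in PUS7KO (0.98, adjusted p = 0.0018).

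**Figure D5:**
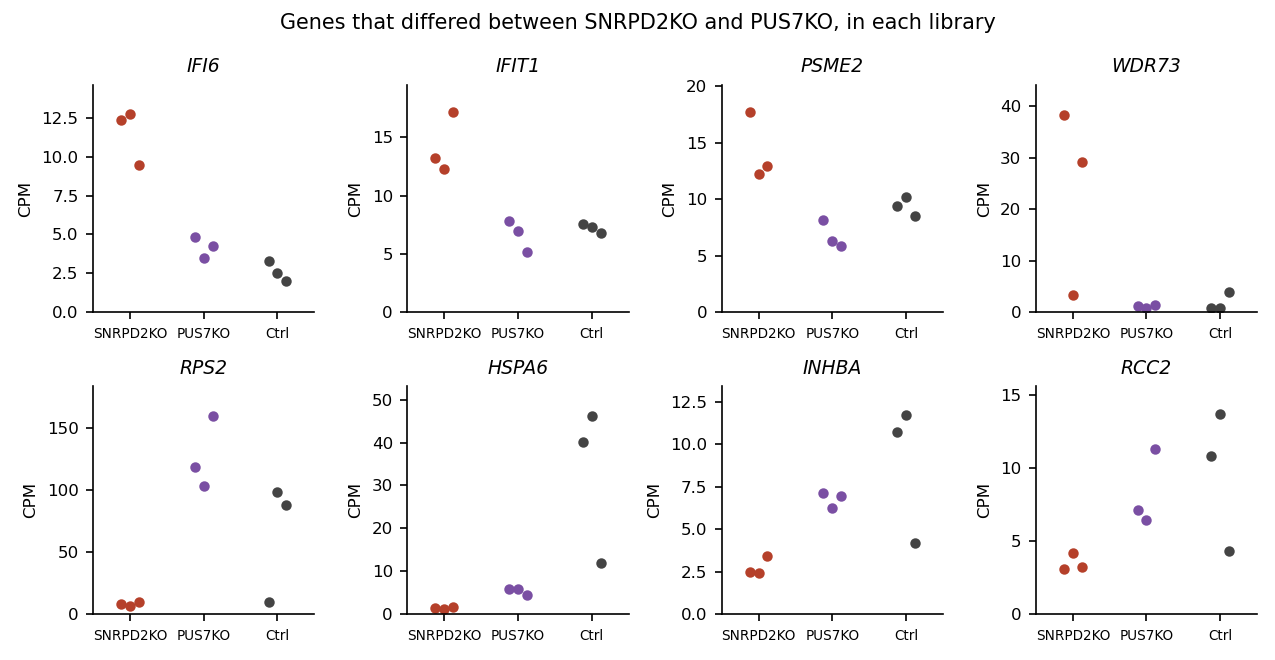
CPM of 8 genes that passed between SNRPD2KO and PUS7KO, in each library (points), with SNRPD2KO left, PUS7KO in the middle and Ctrl right and the vertical axis starting at 0. IFI6, IFIT1, PSME2 and WDR73 have their highest means in SNRPD2KO, and RPS2, HSPA6, INHBA and RCC2 are lower in SNRPD2KO than in PUS7KO.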

How the data were processed

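The authors deposited whole-number read counts per gene for the HEK293T libraries in 1 table, without normalization. Per the labels' protocols, libraries came from total RNA depleted of ribosomal RNA with a stranded kit. The submitters' processing notes name cutadapt 4.2, HISAT2 2.2.1, RSEM and build hg38, without their roles, and whether reads were counted by strand is not given in the sources used here, so antisense and overlapping genes are uncertain. The HuCCT1 libraries were not used here.

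Counts of the 9 HEK293T libraries were fitted together with edgeR 4.0.16 (R 4.3.3), because a shared estimate of spread is steadier than that of 6 libraries. Genes passed its low-count filter (minimum count 10, minimum total 15), libraries were scaled by TMM, and the quasi-likelihood test was adjusted by Benjamini-Hochberg over all 15882 genes, with calls at an adjusted p under 0.05. Fold changes are log2, SNRPD2KO minus Ctrl, from the fit, and SE its standard error. CPM of single genes use TMM-scaled totals, and marker sums the plain totals. Floors are 3 counts of a library's total. On simulated counts for this comparison, 70.4% of 98 genes changed by 2-fold and 95.9% of 97 changed by 4-fold were called. Of 15011 unchanged genes 0.113% were called, with 15206 genes tested. In the data 53.3% of genes passed, and whether these rates hold with that many changed genes was not tested.

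Named genes are the 15 coding and 6 lncRNA genes with the largest change each way among called genes with a symbol, at least 5 CPM in the higher group and no overlap between the groups' libraries, the 6 called members of each of 48 lists with the largest change, members against a list's majority, the 5 each way with the highest level among those without a count in the other group, and the 8 largest each way against PUS7KO. Some were left out for space. ATF4, ASNS, AARS1, RN7SL1 and the cell type markers fall outside it, and all but the markers were chosen after their values were seen. Members and lists were chosen with earlier results of these data known. GC content came from GENCODE 29 transcripts, with a value for 97.0% of tested genes, and promoters from RefSeq GRCh38.p14. Alternatives used limma 3.58.1 (voom), DESeq2 1.42.0, other scalings and filters, the GC trend removed, thinned counts and each library left out. Some genes are not reported here.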

Additional observations from a re-analysis of the deposited data

How the results depend on the processing

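Of 15882 genes tested, 8460 changed with RLE factors, 8408 with limma voom, 7783 with DESeq2 and 6523 at an adjusted p under 0.01. The count was 8261 of 15223 genes with the 6 libraries alone and 7865 of 14852 with counts thinned to the smallest total. With the GC trend removed it was 7910 of 15406. Against a 1.5-fold limit 2988 genes passed, 1359 higher and 1629 lower. Without the low-count filter 9438 of 40695 passed, and the median of all genes moved to -0.19. Leaving out each library in turn, with 16458 to 16707 genes tested, gave 7749 to 8503 changed genes. Of these 3900 to 4292 were higher and 3810 to 4211 lower, and 2713 to 3270 changed over 2-fold. Deviations from the group means correlated at -0.09 to 0.04 between same-numbered libraries of different groups. No pairing by replicate number was thus seen, though these values cannot exclude one. A fit with the replicate number as a block called 8320 genes, and 560 against PUS7KO. In that second comparison 1292 genes passed without the filter (403 higher, 889 lower), 374 were higher by DESeq2, and 31 passed at an adjusted p under 0.01 (10 higher, 21 lower). Leaving out libraries was not run for it. Chosen after seeing the data, leaving out genes that varied over 3-fold within a group gave 8554 changed genes of 15784. Leaving out those covered by others on their strand gave 7715 of 14269.

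Over 488 named results and 9972 comparisons with an alternative, 9352 kept their direction and call, 596 kept the direction only, 5 gained a call and 19 reversed, all 19 with the GC trend removed. Those were EIF2S1 at 0.0239, DNAJB11 at 0.0648, ACSL3 at 0.0478, UQCRB at 0.0209, EIF3E at 0.23, ATM at 0.049, BAD at -0.10, HLA-C at -0.0233, NFKB2 at -0.0359, PSMD14 at 0.30, PSMC2 at 0.0528, PSMA3 at 0.22, PSMD6 at 0.12, LSM10 at -0.0162, U2AF2 at -0.0189, PUS10 at 2.2e-05, SHQ1 at 0.0582, NUP58 at 0.16 and FLNA at -0.0209, and the cause was not tested. Medians within 0.11 of 0 also changed sign in other fits, for the lists of G1 control, heat shock, proteasome, actin and metalloproteases. Genes near 5 CPM rest on few counts, and falls to near the floor have poorly determined sizes.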
